A study of Mus musculus with 37 samples.

Results

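The genes described here encode subunits of the respiratory chain and of ATP synthase. They were chosen by symbol: nuclear genes named Nduf (complex I), Sdh (complex II), Uqcr or Cyc1 (complex III), Cox4 to Cox8 (complex IV) and Atp5 (complex V), and mitochondrial genes named mt-Nd, mt-Co or mt-Atp, with at least 20 UMIs (unique molecular identifiers, each standing for 1 captured RNA molecule) summed over a table. This kept 87 of the 27407 genes in the table of whole organoids, 86 of 20500 in a first table of sorted cells and 86 of 27547 in a second one. Of these, 80, 79 and 79 were nuclear and 7 in each table were mitochondrially encoded. The names just outside the minimum were mt-Co2, mt-Co3 and mt-Atp6 with at most 10 UMIs in any table where they were counted, and Cox6a2 with 1 UMI in the second table of sorted cells, and those just inside it were Cox6b2 with 30 UMIs and Atp5g2 with 36 in the first table of sorted cells.

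The respiratory chain sits in the inner mitochondrial membrane. Complexes I and II take electrons from NADH and succinate, complexes III and IV pass them on to oxygen by way of cytochrome c, and complex V uses the resulting proton gradient to make ATP. Most subunits are encoded in the nucleus and imported, but a few core subunits of complexes I, III, IV and V are transcribed and translated inside the mitochondrion, so that both genomes contribute to the same complexes. Intestinal stem cells are known for high mitochondrial activity relative to their Paneth cell neighbours.

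The samples were jejunal organoids, epithelial cultures grown from intestinal crypts of adult male and female mice aged 6 to 12 weeks, and VIP (vasoactive intestinal peptide) is a neuropeptide of the gut's own nervous system. Whole organoids of C57Bl6/J mice were left untreated (3 cultures, 5 libraries) or given 100 nM VIP for 72 h (4 cultures, 8 libraries). Cells sorted for EGFP from organoids of Lgr5-EGFP-IRES-CreERT2 mice, in which the reporter is driven by the stem cell gene Lgr5, were left untreated or given 100 nM VIP for 72 h (4 samples each). In a further cohort of sorted cells from organoids of 4 such mice, every mouse gave an untreated sample, a sample with 100 nM VIP for 48 h, a sample after 6 Gy of irradiation and a sample with VIP for 48 h after 6 Gy. Every sample had an organoid line of 1 mouse as its source, and the same mouse number in 2 groups marked the same mouse, so differences were taken within mice. Mouse 4 of the whole organoids had a VIP culture only and did not enter those differences.

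Total UMIs per culture were 3722716 to 6330404 in whole organoids, 575242 to 1104126 in the first sorted experiment and 1075715 to 1876729 in the irradiation cohort. Levels are given as CPM, a gene's UMIs over the total UMIs of a sample, scaled to 1000000. The 4 epithelial markers were detected in every group, and the 6 non-epithelial markers summed to at most 89.2 CPM in any sample. Lgr5 mRNA itself was low in the sorted cells, at 12.2 to 56.2 CPM against 42.4 to 116 CPM in whole organoids, while Olfm4, another stem cell marker, was at 1653 to 5846 CPM in the sorted cells. Lgr5 mRNA thus did not set the sorted cells above whole organoids, and the cell type is named here from the EGFP sort. The 2 technical libraries of the VIP culture of mouse 3 in whole organoids stood apart from each other in the mitochondrially encoded share, at 1.32% and 1.64% of UMIs, and the class shares, the class ratio, the calls and the levels of 4 named genes are given with and without the second. In bulk samples like these, fewer cells of a type and less RNA per cell cannot be told apart.

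Which mitochondrial genes could be measured was uneven. In the table of whole organoids mt-Nd1 had 271841 UMIs, mt-Nd4 164112, mt-Nd2 66347, mt-Nd5 33970, mt-Co1 28037, mt-Nd6 4524 and mt-Nd3 219. The first 5 of these encode core subunits of the membrane arm of complex I or, for mt-Co1, the catalytic subunit of complex IV. The genes mt-Co2 and mt-Atp6 had 3 UMIs each in the same table, and mt-Co3, their neighbour on the mitochondrial genome, had 2 and 3 UMIs in the tables of sorted cells. The gene for cytochrome b, mt-Cytb, the mitochondrially encoded subunit of complex III, had 382940 UMIs but does not match the letters of the rule, and its values are given beside those of the members as a non-member. Counts of mt-Atp8 and mt-Nd4l, of mt-Co3 in whole organoids and of mt-Co2 in the cohort were not analysed here.

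The 4 mitochondrially encoded genes with fewest UMIs have near-identical copies in the nucleus. Every stretch of 65 bases, the read length, was looked up in the annotated transcripts of nuclear genes (GENCODE M21, GRCm38). For mt-Co2, mt-Atp6, mt-Co3 and mt-Nd3, 99.5%, 99.5%, 99.9% and 97.9% of stretches were also in a nuclear transcript, and these copies (Gm28661, Gm10925, Gm28437 and Gm28438) lie next to each other at chr1:24612775-24615565. For mt-Nd1, mt-Nd6 and mt-Cytb the share was 0%, for mt-Nd5 3.13% and for mt-Nd2 6.67%. The other genes lay between these extremes. In mt-Nd4 61.8% of stretches had a nuclear copy but none in the last 300 bases, where 3′ libraries take most reads, and in mt-Co1 44.3% had one, including all of those in the last 300 bases. Of the genes without counts here, mt-Nd4l had 98.7% of its stretches in a nuclear transcript and mt-Atp8 had 0%. The copies themselves were counted at most 96 times in a table. Whether reads matching both places were dropped in counting was not tested. The following 65-base stretches, 5′ to 3′ on GRCm38, show such sharing: those of mt-Co1 and mt-Co2 are found letter for letter in the nuclear transcripts Gm29216 and Gm28661, and that of mt-Nd1 in none.
mt-Co1 (chrM:6808-6872, plus strand): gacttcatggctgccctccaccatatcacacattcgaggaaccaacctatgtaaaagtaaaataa
mt-Co2 (chrM:7629-7693, plus strand): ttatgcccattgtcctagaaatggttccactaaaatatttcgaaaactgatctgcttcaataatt
mt-Nd1 (chrM:3643-3707, plus strand): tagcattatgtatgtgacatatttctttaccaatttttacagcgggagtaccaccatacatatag
The mitochondrially encoded results below therefore rest mainly on complex I genes. Strand use in counting is not given in the sources used here, and mt-Nd5 and mt-Nd6 overlap at their ends on opposite strands (chrM:11742-13565 and chrM:13552-14070), so reads in the shared bases could not be assigned between them.

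**Figure D1:**
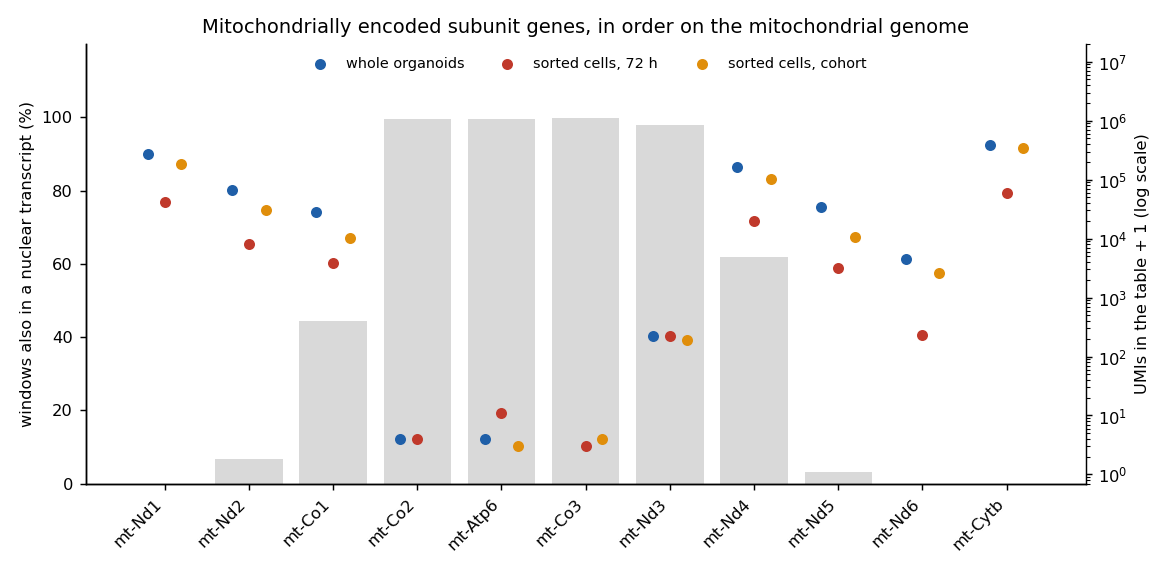
Bars show, for each mitochondrially encoded subunit gene with counts in a table, in its order on the mitochondrial genome, the percentage of 65-base stretches that also occur in an annotated nuclear transcript (left axis), and points show the UMIs summed over each of the 3 tables plus 1 (right axis, log scale). The 4 plotted genes with bars above 97% have at most 224 UMIs, whereas mt-Cytb, with no shared stretch, has 382940 in whole organoids.

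Promoters of the nuclear members were read from RefSeq (GRCm38.p6), in a window of 250 bases before to 50 bases after each gene's start. A promoter was found for 65 of the 80 nuclear members. Motifs known from studies of respiratory genes were searched on both strands: the core of the NRF1 site, GCGCATGC (reverse complement GCATGCGC, which can overlap it), and the GABP/ETS motif CCGGAAG (reverse complement CTTCCGG). The NRF1 core was in 10 of the 65 promoters (15.4%) and in 3.05% of the promoters of all 27025 genes. The GABP/ETS motif was in 17 (26.2%), against 9.93% of all genes, and 22 (33.8%) held either, against 12.4%. Of the 18 nuclear members past the threshold in any comparison below, 16 had a promoter, of which 0 held the NRF1 core and 6 held the GABP/ETS motif. A match is a description of letters, not of a bound site. The 250 bases before the start are shown for 3 members that the irradiation results turn on, Cox7a2l and Cox8a, which fell, and Ndufb6, which rose. Capitals mark a GABP/ETS motif, here as its reverse complement in Ndufb6. That of Cox8a lies past the start and outside the bases shown, and the window of Cox7a2l holds neither motif.
Cox7a2l (chr17:83514334-83514583, minus strand): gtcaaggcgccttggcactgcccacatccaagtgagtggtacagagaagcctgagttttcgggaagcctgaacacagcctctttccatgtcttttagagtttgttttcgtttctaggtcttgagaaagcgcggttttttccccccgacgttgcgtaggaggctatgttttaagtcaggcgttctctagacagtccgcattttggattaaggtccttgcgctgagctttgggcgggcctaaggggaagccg
Cox8a (chr19:7217617-7217866, minus strand): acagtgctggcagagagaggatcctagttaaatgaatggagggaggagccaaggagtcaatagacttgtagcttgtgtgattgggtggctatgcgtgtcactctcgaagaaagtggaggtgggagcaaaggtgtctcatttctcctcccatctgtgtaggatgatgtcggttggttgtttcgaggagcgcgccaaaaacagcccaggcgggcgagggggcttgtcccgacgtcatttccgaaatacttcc
Ndufb6 (chr4:40279422-40279671, minus strand): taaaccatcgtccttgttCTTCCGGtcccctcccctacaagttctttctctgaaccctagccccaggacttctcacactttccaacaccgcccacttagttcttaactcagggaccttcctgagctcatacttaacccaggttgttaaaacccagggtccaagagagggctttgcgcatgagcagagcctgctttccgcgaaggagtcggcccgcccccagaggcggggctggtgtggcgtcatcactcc

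In whole organoids with VIP 3 subunits fell (Cox7a1, Ndufa4 and mt-Nd6), most others had lower values that did not pass the test, and the median difference was larger for the mitochondrially encoded than for the nuclear ones. The 7 mitochondrially encoded members together took 1.63%, 1.71% and 1.62% of the UMIs in the untreated cultures of mice 1, 2 and 3, and 1.45%, 1.32%, 1.45% and 1.36% in the VIP cultures of mice 1 to 4. The nuclear members took 4.94%, 4.81% and 5.05% without VIP and 4.65%, 4.40%, 4.71% and 4.69% with it. In neither class did the groups overlap. The binomial counting error of such shares was at most 0.0318 percentage points for the mitochondrial and 0.0643 for the nuclear members (half-width of the 95% Wilson interval in any sample), and these intervals cover counting error only. Without the second library of mouse 3 its VIP values were 1.32% and 4.63%. There were 33.0, 35.5 and 32.2 mitochondrially encoded UMIs per 100 nuclear ones in untreated and 31.2, 30.0, 30.7 and 29.1 in VIP cultures. Within mice the log2 ratio of mitochondrially encoded to nuclear UMIs differed by −0.08, −0.24 and −0.07 (mean −0.13 ± 0.10 SD, n = 3). With mt-Cytb counted mouse 3 was at 0.09 and the mean was −0.13 ± 0.21. Both values of mouse 3 moved with its second library: without it they were −0.17 and, with mt-Cytb, −0.04, and the means were −0.16 ± 0.08 and −0.17 ± 0.15.

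**Figure D2:**
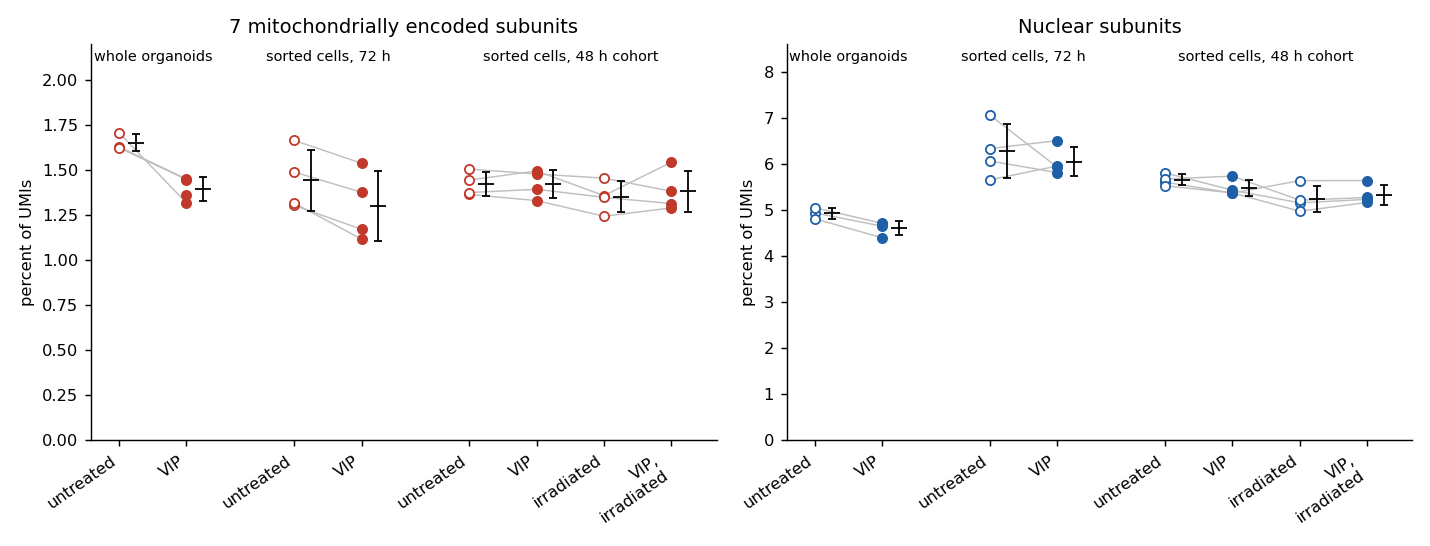
Percentage of each sample's UMIs in the 7 mitochondrially encoded members (left) and in the nuclear members (right), by group; open points are samples without VIP, filled points samples with VIP, grey lines join samples of a mouse, and black marks give mean ± SD (n = 3 or 4). In whole organoids both shares are lower with VIP without overlap, while in the 48 h cohort the mitochondrially encoded shares overlap in all 4 groups.

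Gene by gene, edgeR's quasi-likelihood test with the mouse as a block was run on all 12727 genes that passed a filter on low counts, and a gene is said to have risen or fallen where its Benjamini-Hochberg adjusted p was at most 0.05. All members but Cox6a2 passed the filter. Of the 79 nuclear members tested 2 fell and 0 rose, and of the 7 mitochondrially encoded ones 1 fell and 0 rose. Over all genes 1.10% fell and 3.72% rose. The tested values lay mostly below zero: 75 of 79 nuclear and 7 of 7 mitochondrially encoded members had a negative log2 fold change, with medians of −0.09 and −0.23, against 6457 of 12727 and a median of −0.00 for all genes. By complex the nuclear medians were −0.09 (I, 36 genes), −0.07 (II, 4), −0.11 (III, 9), −0.13 (IV, 14) and −0.08 (V, 16). In each mouse more nuclear members were lower than higher with VIP: 59, 56 and 76 of 79. Here and below, the direction in a mouse is that of TMM-scaled log2 CPM, which for small differences can be opposite to that of the printed CPM.

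The member with the lowest adjusted p was Cox7a1, the subunit 7a isoform of complex IV best known from heart and skeletal muscle. It was at 201, 173 and 142 CPM in the untreated and 89.9, 126, 98.3 and 114 CPM in the VIP cultures. The groups did not overlap. Cox7a1 was lower in 3 of 3 mice, with a log2 fold change of −0.72 and an SE of 0.12 (adjusted p = 0.00333, edgeR). Ndufa4, first described with complex I and since found in complex IV, was at 1068, 975 and 1337 CPM without and 862, 775, 1066 and 854 CPM with VIP. These ranges overlapped, since mouse 3 was the highest in both groups, but Ndufa4 was lower in all 3 mice (−0.33 ± 0.08, adjusted p = 0.0344, edgeR). mt-Nd6, the only subunit gene on the other strand of the mitochondrial genome, was at 167, 149 and 99.4 CPM without and 109, 107, 92.7 and 107 CPM with VIP (−0.41 ± 0.10, adjusted p = 0.0367, edgeR). Again mouse 3, lowest in both groups, made the groups overlap. From its first library alone, VIP mouse 3 was at 49.4 CPM for Cox7a1, 1098 CPM for Ndufa4, 73.1 CPM for mt-Nd6 and 6914 CPM for mt-Nd1. The log2 fold changes of Ndufa4 and mt-Nd6 were then −0.31 and −0.51, and Cox7a1, Ndufa4 and mt-Nd6 had adjusted p of 0.00145, 0.0103 and 0.0012 in edgeR's test.

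The more abundant mitochondrial transcripts did not pass the threshold. mt-Nd1 was at 7680, 7338 and 8551 CPM in untreated and at 6997, 6038, 7191 and 6702 CPM in VIP cultures, which did not overlap (−0.23 ± 0.08, adjusted p = 0.173, edgeR). mt-Nd4 had a log2 fold change of −0.27 and mt-Nd2 of −0.22, each lower in 3 of 3 mice (mt-Nd4 in 2 of 3 on unscaled CPM). For mt-Nd5, mt-Co1 and mt-Nd3 the values were −0.18, −0.19 and −0.23, each lower in 2 of 3 mice, as was mt-Cytb at −0.23. The calls changed with mouse 3 and its libraries: without the second library of VIP mouse 3, 8 nuclear and 4 mitochondrially encoded members fell (mt-Nd2, mt-Nd4, mt-Nd5 and mt-Nd6, and among the nuclear ones Cox4i1, Uqcrq and Ndufb11), and without mouse 3 altogether 7 and 3 fell. Without mouse 1, 0 members passed. Without mouse 2, 1 passed (Cox7a1).

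Among the fixed nuclear members, the succinate dehydrogenase flavoprotein gene Sdha had a log2 fold change of −0.09, the Rieske protein gene Uqcrfs1 −0.07, cytochrome c1 (Cyc1) −0.10, the complex IV subunits Cox4i1 and Cox5a −0.23 and −0.03, and the ATP synthase subunits Atp5a1 and Atp5b −0.04 and −0.09. None of these passed the threshold. The testis-type isoform Cox6b2 was low, at 1.34 to 8.30 CPM, with 0.44 ± 0.27 (adjusted p = 0.464, edgeR). Goblet cell markers moved with the treatment as well, at 5458 to 6776 CPM summed over 7 genes in untreated and 7792 to 9316 CPM in VIP cultures (6 of 7 rose, Spink4 did not pass). The 10 enterocyte markers summed to 19186 to 21023 and 16090 to 17410 CPM. Singly they were mixed: 2 rose and 3 fell, and 5 values were positive and 5 negative. The part of cell composition in the subunit values was not tested.

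Other genes of the pathway were taken from lists that were chosen with earlier results of these data known. Of 47 tested assembly factors, 31 genes of mitochondrial gene expression (such as Tfam and Polrmt), 14 biogenesis regulators and 17 genes of the tricarboxylic acid cycle, 0 passed the threshold in whole organoids. Among 21 electron carriers and transporters, 2 fell, both of the coenzyme Q pathway: Coq8a, needed for its synthesis (−0.63 ± 0.14, adjusted p = 0.0144, edgeR), and Pdss1, which makes its side chain (−0.47 ± 0.10, adjusted p = 0.0154). Of 12 tested genes of the mitochondrial stress response, 2 fell, the transcription factor Atf5 (−0.88) and asparagine synthetase, Asns (−0.48), and 0 rose.

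**Figure D3:**
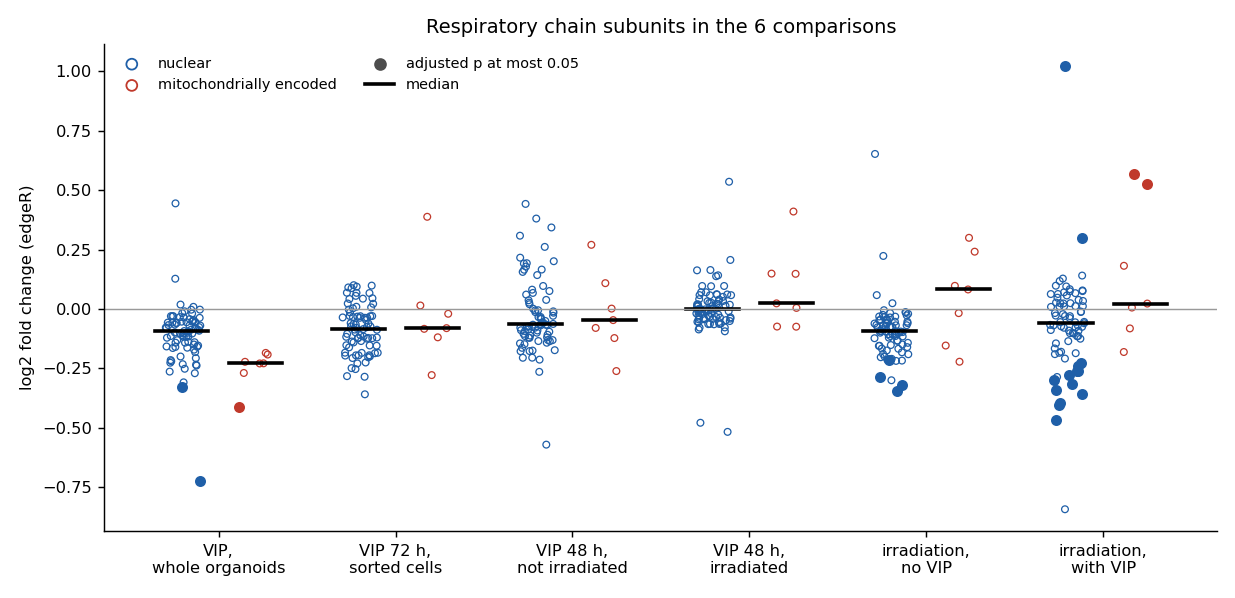
edgeR log2 fold changes of every tested nuclear (blue) and mitochondrially encoded (red) member in the 6 comparisons; filled points have an adjusted p of at most 0.05 and black bars are medians. In whole organoids the mitochondrially encoded median is −0.23 and the nuclear one −0.09, and under irradiation without VIP they are 0.08 (−0.0079 without mouse 2) and −0.09.

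In sorted Lgr5-EGFP+ cells after 72 h of VIP, 0 of 77 nuclear and 0 of 7 mitochondrially encoded members passed the threshold, where 0.0885% of the 6778 genes tested did. Atp5g2 and Cox6b2 did not pass the filter on low counts. DESeq2 also called 0 members, and 0 of the 84 had an unadjusted p under 0.05, against 375 of all 6778 genes. Of the nuclear members 60 had a negative value (median −0.08) and of the mitochondrially encoded ones 5 (median −0.08), with a median of −0.00 over all genes. The mice did not share this pattern, since 66 of 77 nuclear members were lower with VIP in mouse 3 and 65 in mouse 4, but only 23 in mouse 1 and 18 in mouse 2. Mouse 3 carried most of it: without this mouse the nuclear median was 0.00.

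The members with the smallest p were Uqcrq, a small subunit of complex III, and Ndufa1, an accessory subunit of complex I. Uqcrq was at 2138, 1872, 2351 and 1843 CPM in untreated and 2033, 1690, 1621 and 1570 CPM in VIP samples, lower in 4 of 4 mice (−0.28 ± 0.14, adjusted p = 0.884, edgeR). Ndufa1 had the same value (−0.28 ± 0.14) and was lower in 3 of 4. The share of the mitochondrially encoded members was 1.30%, 1.67%, 1.32% and 1.49% without and 1.17%, 1.54%, 1.12% and 1.38% with VIP, lower in each of the 4 mice by less than the spread between mice. The nuclear share was 6.33%, 5.65%, 7.05% and 6.06% without and 6.50%, 5.95%, 5.93% and 5.81% with VIP, higher in 2 mice and lower in 2. The log2 ratio of the classes differed by −0.19, −0.19, 0.01 and −0.05 (mean −0.11 ± 0.10 SD, n = 4), and with mt-Cytb by a mean of −0.15 ± 0.10, lower in 4 of 4. Cox7a1 was at 25.3 to 62.5 CPM without and 34.0 to 38.9 CPM with VIP. Whether the VIP difference itself differed between organoids and sorted cells was tested as an interaction in a joint fit over 10194 genes. It was past the threshold for 0 of 84 members and for 0.147% of all genes (0 members with DESeq2, 0 with an unadjusted p under 0.05, beside 636 of all genes). Its smallest p among nuclear members was that of Cox7a1 (0.54 ± 0.29, adjusted p = 0.843, edgeR), which leaves a difference between organoids and sorted cells for this gene unresolved. None of the genes of the 7 mitochondrial pathway lists passed the threshold in these cells.

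In the irradiation cohort each VIP contrast shares samples with each irradiation contrast, so their values are set side by side and not compared as independent evidence. Values given as before and after irradiation are those of parallel samples without and with it, not of successive times. VIP for 48 h without irradiation changed 0 of 78 nuclear and 0 of 7 mitochondrially encoded members past the threshold, against 0.742% of 9976 genes, and Cox6c2 did not pass the filter. With DESeq2 1 member, Cox4i1, passed, and 23 nuclear members had an unadjusted p under 0.05, of which 9 were higher and 14 lower, beside 1235 of all 9976 genes. The medians were −0.06 (nuclear) and −0.05 (mitochondrially encoded). The complex V subunit Atp5md, a small subunit of the membrane part, was at 145, 153, 135 and 131 CPM without and 176, 189, 180 and 174 CPM with VIP, and the groups did not overlap (0.34 ± 0.09, adjusted p = 0.0625, edgeR). Cox7c, a complex IV subunit, was at 119, 173, 151 and 150 CPM without and 233, 179, 177 and 188 CPM with VIP (0.38 ± 0.10, adjusted p = 0.0807). Both were higher in 4 of 4 mice and missed the threshold. The mitochondrially encoded share was 1.37%, 1.45%, 1.38% and 1.51% without and 1.33%, 1.50%, 1.39% and 1.48% with VIP, and the log2 ratio to the nuclear members differed by 0.03, 0.15, 0.00 and 0.01 (mean 0.05 ± 0.07 SD, n = 4). With mt-Cytb counted the mean was 0.12 ± 0.07, higher in 4 of 4 mice.

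After irradiation, VIP against no VIP again changed 0 of 78 nuclear and 0 of 7 mitochondrially encoded members, with 0.221% of all genes past the threshold. DESeq2 called 0 members, and 3 had an unadjusted p under 0.05, beside 574 of all 9976 genes. The medians were −0.00 and 0.02, and 38 nuclear members had a positive and 40 a negative value. The smallest p were those of Cox7a1 (−0.48 ± 0.17, adjusted p = 0.577, edgeR) and Atp5h (0.16 ± 0.07, adjusted p = 0.705), a subunit of the stalk of ATP synthase. The log2 ratio of the classes differed by 0.05, 0.16, −0.05 and −0.13 (mean 0.01 ± 0.13 SD, n = 4). With mt-Cytb counted the mean was −0.04 ± 0.13, higher in 2 mice and lower in 2. The interaction of VIP with irradiation was past the threshold for 0 members and for 0% of all genes (0 with DESeq2), and 8 members had an unadjusted p under 0.05, beside 634 of all genes. The first of these, Ndufb6, had an interaction of 0.24 ± 0.09 (adjusted p = 0.688, edgeR).

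Cox7a1 and Ndufa1 were lower with VIP in every mouse of the cohort, without and after irradiation, on scaled and on unscaled CPM. These contrasts share no samples but share the mice. Neither gene was past the threshold in either contrast, and the share of all genes that agree in this way is not given here. Without irradiation Cox7a1 was at 40.2, 29.6, 25.6 and 32.1 CPM in untreated and 27.8, 19.4, 18.5 and 20.7 CPM in VIP samples (−0.57 ± 0.16, adjusted p = 0.096, edgeR). After irradiation it was at 31.8, 21.1, 25.1 and 33.0 CPM without and 23.4, 18.4, 14.1 and 23.7 CPM with VIP. The groups overlapped in both settings, and neither test passed the threshold (adjusted p = 0.577 with edgeR after irradiation). Irradiation itself gave −0.22 ± 0.16 without and −0.12 ± 0.18 with VIP.

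**Figure D4:**
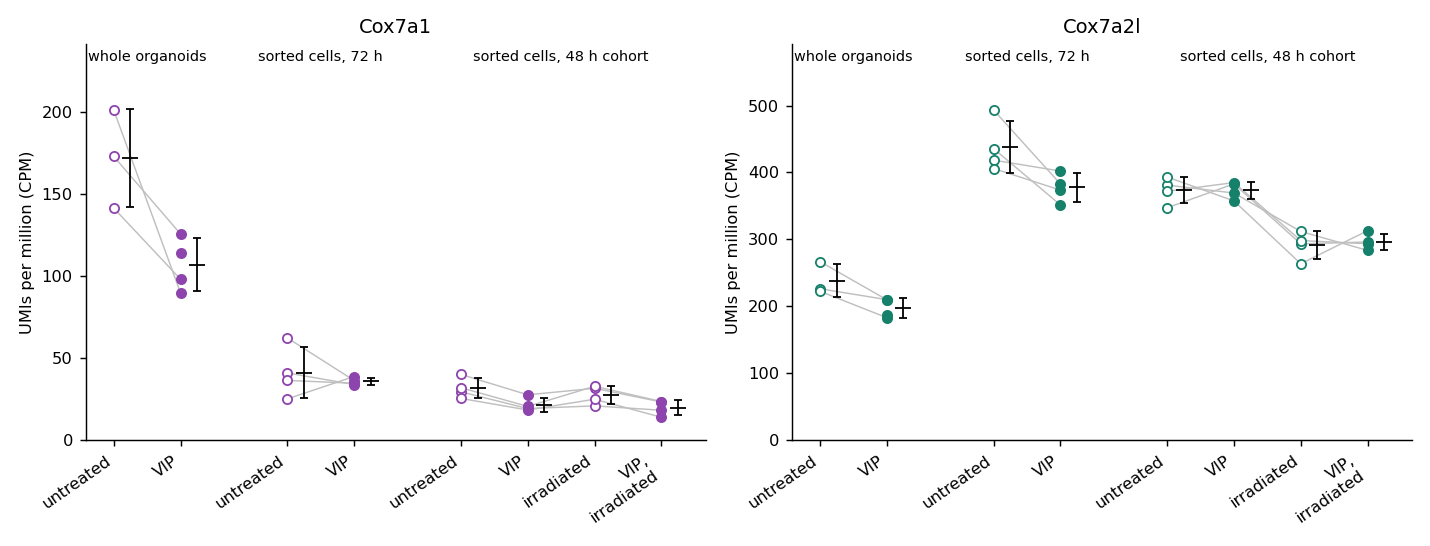
Levels (CPM) of the complex IV genes Cox7a1 (left) and Cox7a2l (right) in every sample; open points are samples without VIP, filled points with VIP, grey lines join samples of a mouse and black marks give mean ± SD (n = 3 or 4). Cox7a1 lies at 89.9 to 201 CPM in whole organoids and at 14.1 to 62.5 CPM in sorted cells, and Cox7a2l is lower in all irradiated samples than in the non-irradiated samples of the same cohort.

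After irradiation without VIP most nuclear subunits had lower values, 4 of them past the threshold, while single mitochondrially encoded subunits went either way. The nuclear members took 5.60%, 5.80%, 5.67% and 5.52% of UMIs in the samples of mice 1 to 4 that were not irradiated, and 5.64%, 5.15%, 5.21% and 4.97% in the irradiated ones. Mouse 1 was higher by 0.0336 percentage points and the other 3 were lower than any sample that was not irradiated. The share of the 7 mitochondrially encoded members was 1.37%, 1.45%, 1.38% and 1.51% without and 1.24%, 1.36%, 1.35% and 1.46% with irradiation, lower in each of the 4 mice, with overlapping groups. mt-Cytb, which is not in this share, was lower in mouse 1 and higher in the other mice. It was at 14268, 13319, 12917 and 12911 CPM without and 13572, 13709, 15286 and 15514 CPM with irradiation. There were 24.4, 24.9, 24.3 and 27.3 mitochondrially encoded UMIs per 100 nuclear ones without and 22.1, 26.4, 25.9 and 29.3 with irradiation. The log2 ratio thus differed by −0.14 in mouse 1 and by 0.08, 0.09 and 0.10 in the other mice (mean 0.03 ± 0.12 SD, n = 4), which is less than the spread between mice, and with mt-Cytb by a mean of 0.13 ± 0.17.

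Of 78 nuclear members 4 fell and 0 rose, and of 7 mitochondrially encoded ones 0 passed. Over all 9976 genes 1.59% fell and 2.87% rose. Negative values were found for 74 of 78 nuclear members (median −0.09; all genes 5060 of 9976, median −0.00) and for 3 of 7 mitochondrially encoded ones (median 0.08). The medians moved when mice were left out: without mouse 2 they were −0.05 and, turned in sign, −0.0079, without mouse 1 −0.13 and 0.16, and without mouse 4 −0.09 and 0.02. The negative values covered all complexes, with 33 of 36 nuclear genes of complex I, 4 of 4 of complex II, 9 of 9 of complex III, 12 of 13 of complex IV and 16 of 16 of complex V. By mouse, 28, 76, 67 and 65 of 78 nuclear members were lower after irradiation, so mouse 1 differed from the other mice.

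Cox7a2l, a complex IV-related protein also called SCAF1, was at 347, 381, 372 and 393 CPM in samples that were not irradiated and 293, 312, 298 and 264 CPM in irradiated ones. The groups did not overlap (−0.35 ± 0.07, adjusted p = 0.00248, edgeR). Ndufb11, an accessory membrane arm subunit, was at 465, 495, 454 and 443 CPM before and 435, 381, 361 and 338 CPM after (−0.29 ± 0.07, adjusted p = 0.011, edgeR). The small complex IV subunit Cox8a was at 1491, 1703, 1602 and 1613 CPM before and 1428, 1453, 1324 and 1298 CPM after and fell by 0.21 ± 0.06 on the log2 scale (adjusted p = 0.0494). These 3 were lower in 4 of 4 mice, in groups that did not overlap. Ndufb11 overlaps Rbm10 on the opposite strand. The calls changed when mice were left out: without mouse 4, 0 members passed, without mouse 2 only Cox7a2l, without mouse 3, 2 members including Cox7a2l, and without mouse 1, 10 nuclear members fell and mt-Co1 and mt-Nd5 rose.

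Irradiation with VIP (irradiated VIP samples against VIP samples that were not irradiated) gave 12 nuclear members that fell and 2 that rose out of 78, and 2 mitochondrially encoded ones that rose out of 7. Over all genes 3.47% fell and 4.32% rose. The nuclear median was −0.06 with 50 of 78 negative, against 4969 of 9976 and 0.00 for all genes, and the mitochondrially encoded median was 0.02. Complex V held 4 of the members that fell (Atp5d, Atp5g1, Atp5h and Atp5md), complex I 3 (Ndufs1, Ndufs3 and Ndufb4), complex IV 3 (Cox7a2l, Cox7c and Cox8a), complex II 2 (Sdha and Sdhd) and complex III 0. All 12 were lower in 4 of 4 mice. Without mouse 2 only 4 nuclear members fell (Cox7a2l, Cox7c, Ndufb4 and Ndufs3), without mouse 3, 7, without mouse 4, 6, and without mouse 1, 14. The nuclear median was −0.02 without mouse 3, and the mitochondrially encoded one was 0.09 without mouse 3 and 0.06 without mouse 4.

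Cox7a2l gave nearly the same values as without VIP, 383, 369, 385 and 358 CPM before and 296, 284, 294 and 313 CPM after irradiation (−0.34 ± 0.07, adjusted p = 0.00198, edgeR). Cox7c was at 233, 179, 177 and 188 CPM before and 141, 141, 147 and 136 CPM after (−0.47 ± 0.10, adjusted p = 0.00423), and the value without VIP was −0.12. Atp5g1, which encodes the proton-carrying c subunit of ATP synthase, was at 544, 591, 530 and 524 CPM before and 430, 357, 450 and 430 CPM after (−0.39 ± 0.09, adjusted p = 0.00595). Atp5g1 is 1 of 3 genes for the same mature peptide. Whether its reads are shared with Atp5g2 and Atp5g3 was not tested. Ndufs3, a core subunit of the peripheral arm of complex I, fell by 0.40 ± 0.10 on the log2 scale and Ndufs1, the largest subunit of that arm, by 0.36 ± 0.10. Several members that fell had higher values with VIP without irradiation, such as Cox7c (0.38), Atp5md (0.34), Ndufs1 (0.26) and Sdhd (0.22), none past the threshold. Others were Cox8a, at 1491, 1703, 1602 and 1613 CPM without and 1861, 1945, 1757 and 1792 CPM with VIP, and Atp5h. Cox7a2l was mixed, at 347, 381, 372 and 393 CPM without and 383, 369, 385 and 358 CPM with VIP. For every member that fell, the VIP contrast without irradiation and this contrast share the VIP samples that were not irradiated. Both values therefore rest in part on the same 4 samples.

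Of the nuclear members that rose, Ndufb6, an accessory subunit of the membrane arm of complex I, was at 448, 430, 492 and 439 CPM before and 614, 560, 536 and 529 CPM after irradiation, in groups that did not overlap (0.30 ± 0.06, adjusted p = 0.00344, edgeR). Ndufb6 overlaps Smim27 on the opposite strand. Cox6b2 rested on few molecules, 14, 17, 22 and 20 UMIs before and 35, 28, 46 and 60 after (1.02 ± 0.27, adjusted p = 0.02), and it too was higher in 4 of 4 mice. Without VIP the values of these genes under irradiation were 0.06 and 0.65, neither past the threshold.

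The mitochondrially encoded members that rose were mt-Nd5 and mt-Co1. mt-Nd5 was at 387, 321, 340 and 337 CPM before and 478, 706, 435 and 476 CPM after irradiation with VIP, higher in 4 of 4 mice (0.57 ± 0.13, adjusted p = 0.00634, edgeR). mt-Co1 was at 409, 311, 331 and 284 CPM before and 407, 634, 467 and 439 CPM after, higher in 3 of 4 (0.53 ± 0.13, adjusted p = 0.0134). Mouse 2 was the highest of the irradiated VIP samples for both genes, and without mouse 2 neither was past the threshold. DESeq2 called neither of them and instead placed mt-Nd1 past the threshold as lower. mt-Nd1, with many more UMIs, was at 7445, 8257, 7736 and 8236 CPM before and 6720, 6992, 7066 and 7321 CPM after (−0.18 ± 0.06, adjusted p = 0.0699, edgeR), and mt-Nd2 and mt-Nd4 had values of 0.01 and 0.02. The mitochondrially encoded genes thus did not move together, and all but mt-Nd6 are read from the same strand. Summed over the class, the log2 ratio to the nuclear members differed by −0.12, 0.10, 0.04 and −0.04 between irradiated and other VIP samples (mean −0.00 ± 0.09 SD, n = 4). With mt-Cytb counted the mean was −0.03 ± 0.10, higher in 2 mice and lower in 2.

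**Figure D5:**
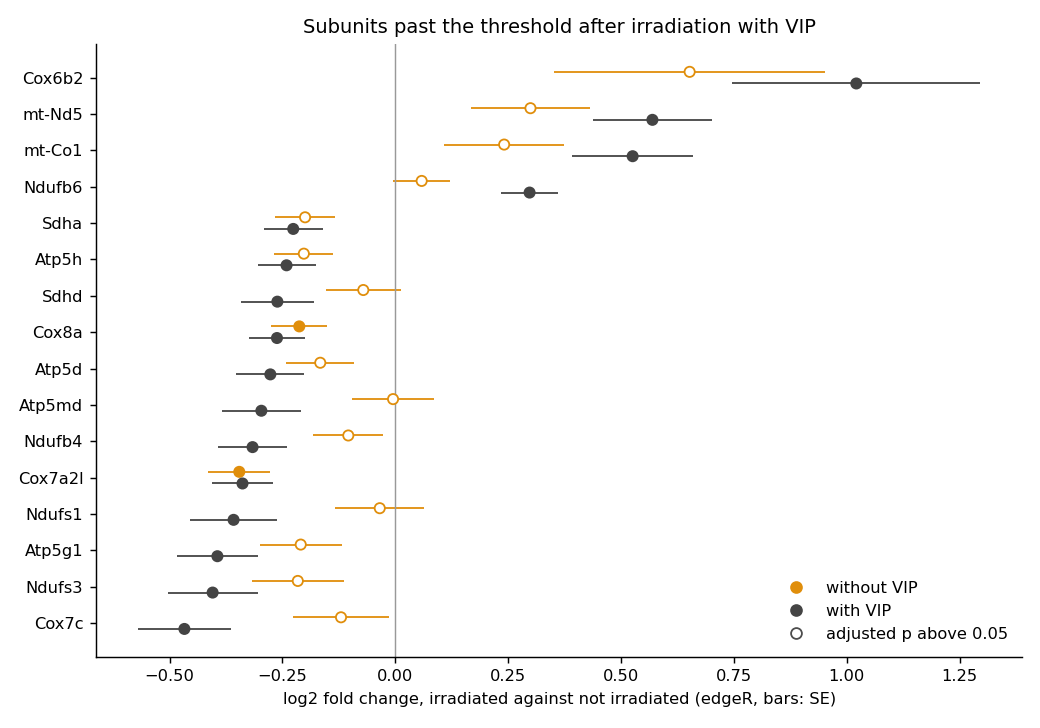
edgeR log2 fold changes (± SE) of irradiated against non-irradiated sorted cells for the 16 members past the threshold with VIP, shown without VIP (orange) and with VIP (grey); filled points have an adjusted p of at most 0.05. Cox7a2l and Cox8a are filled in both contrasts, and Cox6b2, mt-Nd5, mt-Co1 and Ndufb6 lie to the right of zero in both.

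Markers of other cell types moved with irradiation in these sorted samples. The 6 Paneth cell markers summed to 9889 to 14679 CPM in untreated samples that were not irradiated and 14773 to 27162 CPM in irradiated ones, and to 8393 to 9746 and 14661 to 16789 CPM with VIP. All 6 rose in both contrasts. Of the 6 enteroendocrine markers 2 rose without VIP and 6 with it, and of the 7 goblet markers 5 and 3 rose. The 8 stem cell markers summed to 3857 to 4933 CPM before and 2905 to 3337 CPM after irradiation without VIP, and to 5825 to 6261 and 3572 to 4223 CPM with VIP, with Olfm4 falling by 0.64 and 0.86 on the log2 scale. Singly they were mixed without VIP, where 2 fell and 4 of the 8 values were positive and 4 negative. With VIP 3 fell, and 2 values were positive and 6 negative. The 6 non-epithelial markers summed to 22.9 to 30.1 CPM before and 57.6 to 89.2 CPM after irradiation without VIP, and to 15.2 to 37.3 and 33.9 to 57.5 CPM with VIP. VIP itself, without irradiation, went with higher Olfm4 (0.57) and lower Fabp1 (−0.95) and Fabp2 (−0.41), markers of stem cells and enterocytes. The part of these cells in the subunit values was not tested.

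The wider pathway under irradiation showed few calls. Of 21 electron carriers and transporters, 3 fell without VIP (Pdss1 −0.44, Coq8a −0.86 and the uncoupling protein Ucp2 −0.29) and 4 with it (the adenine nucleotide carrier Slc25a5 −0.37, Pdss1 −0.38, the outer membrane channel Vdac1 −0.28 and Coq8a −0.61). Pdss1 and Coq8a were lower in 4 of 4 mice in both, contrasts that share no samples but share the mice. Of 17 genes of the tricarboxylic acid cycle 1 fell in each contrast, without VIP Idh3g (−0.30). Of 47 assembly factors 0 and 1 passed, the latter the copper chaperone Cox17 (0.36), which rose, and of 29 genes of mitochondrial gene expression 0 passed in either. In the stress response list Gdf15, a secreted stress hormone, rose without VIP (0.82) and with VIP (1.30), and with VIP the mitochondrial protease Lonp1 (−0.47), the chaperonin Hspd1 (−0.26) and Asns (−0.30) fell. Lonp1 was the one gene of these lists that passed for VIP itself, without irradiation (0.46, adjusted p = 0.0387, edgeR), and 0 passed for VIP after irradiation. Of 13 biogenesis regulators, 1 fell without VIP, the fatty acid receptor Ppara (−1.32 ± 0.38), and 0 with it.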

How the data were processed

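RNA from whole jejunal organoids and sorted Lgr5-EGFP+ cells was made into 3′ libraries with sample barcodes and UMIs. Per the study's methods, the authors aligned reads to GRCm38 with a GENCODE annotation and ran the Drop-seq pipeline to obtain UMI tables. That annotation was a later release than GENCODE M21, which was used here for positions, overlaps and nuclear copies. The symbols Atp5md and Atp5pb were not matched in M21. The 3 deposited tables hold unnormalized UMI counts, as integers for each gene in each library, and 0 of their columns lack a sample. Members and gene lists were chosen with earlier results of these data known.

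Technical libraries of a culture were summed. Counts were fitted per experiment in R 4.3.3 with edgeR 4.0.16 (filterByExpr by group, TMM factors, quasi-likelihood test, mouse as block, Benjamini-Hochberg adjustment over all genes tested, threshold 0.05); the cohort's 4 groups shared a fit. The fitting code was tested on simulated data. SE is the fold change over the root of the F value. Within-mouse differences used log2 CPM with a prior count of 2. No p was computed for class sums or ratios. DESeq2 1.42.0 (Wald test), other scalings and filters, and leaving out each mouse were tried as alternatives. Named genes were the mitochondrially encoded members, a fixed set of nuclear subunits and tissue isoforms, up to 3 nuclear members per direction with the smallest p among those past the threshold and of 1 direction in every mouse (the 2 smallest p where none passed), and up to 3 past the threshold per pathway list. Beyond these, the other members past the threshold (Cox8a under both irradiation contrasts, and Ndufb4, Ndufs3, Atp5h, Atp5d, Atp5md and Sdhd under irradiation with VIP, among others) were named after their values were seen, as was the fourth carrier under irradiation with VIP.

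Same mouse numbers mark the same animal and so pair the samples. As a check, the deviations from the group mean across genes were correlated. In whole organoids, pairs from one mouse had 0.535 to 0.803, other pairs −0.719 to 0.495. These ranges were −0.00162 to 0.284 and −0.25 to 0.242 in the first sorted experiment, and −0.128 to 0.283 and −0.311 to 0.306 in the cohort. Gene positions came from GENCODE M21 on GRCm38, promoters from RefSeq on GRCm38.p6. With the mouse as a block, p-values rest on how treatment differences vary between organoid lines of single mice. Differences in level between the lines are taken up by the block. Some results were not reported here.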

Additional observations from a re-analysis of the deposited data

Results flagged for a closer look

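Among 64 sets of 4 samples (class shares, the class ratio and the members past the threshold), 3 held a sample whose gap to the nearest other sample, divided by the range of the group, was above Dixon's critical value for 4 samples. Chance flags about 1 in 20. The nuclear members took 5.73% of UMIs in the VIP sample of mouse 3 that was not irradiated, and 5.37% to 5.43% in the other 3. mt-Nd6 was at 92.7 CPM in the VIP organoids of mouse 3, below 107 to 109 CPM in the other 3 cultures. mt-Nd5 was at 706 CPM in the irradiated VIP sample of mouse 2, above 435 to 478 CPM in the others, and its call under irradiation with VIP was lost without that mouse.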

How the results depend on the processing

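Under 372 alternative values of single members, 309 kept their direction and side of the threshold, 62 fell short of it, 1 passed it (Cox7c for VIP without irradiation, with all genes of any count) and 0 reversed. The 309 include members that were not past the threshold to begin with, whereas all 62 belong to members that were. Most often lost were Sdha (7 of 11 alternatives) and Sdhd (6 of 11), both under irradiation with VIP, and mt-Nd6 in whole organoids (6 of 13). Counts of members past the threshold moved as follows. For VIP in whole organoids, 3 members became 1 with DESeq2, 9 with all genes of any count, 5 with first technical libraries only, 12 without the second library of VIP mouse 3, and 0 to 10 when each mouse was left out. Without the replicate block, unpaired, it was 0 for whole organoids. The unpaired counts for irradiation were 3 without and 15 with VIP. For VIP without irradiation 0 became 1 with DESeq2 (Cox4i1) and 1 with all genes of any count. Leaving out each mouse gave 0 to 12 for irradiation without VIP (4 with all mice) and 6 to 18 with VIP (16). The mean log2 class ratio moved to 0.0078 for VIP at 72 h in sorted cells and to 0.14 for irradiation with VIP without the most abundant member of each class (mt-Nd1 and Cox4i1), and to 0.12 for VIP without irradiation with mt-Cytb. As a difference of medians over members it was 0.13 for irradiation with VIP and, reversed in sign, −0.0014 for VIP without irradiation. The cause of these shifts was not tested. Depth limits the low members: Cox6b2 and mt-Nd3 rest on few UMIs per sample.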
